A study of Mus musculus with 6 samples.

Results

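Peaks at chemosensory receptor genes, which act in sensory neurons of the nose, were examined in macrophages as a baseline of genes silent in most tissues. The genes were the protein-coding RefSeq genes on chromosomes 1 to 19 named Olfr, Vmn1r or Vmn2r plus a number, or Taar plus a number, each with 1 kb added on both sides. There were 1471 such genes among 20665 protein-coding genes: 1104 olfactory receptor genes (Olfr), 230 vomeronasal type 1 receptor genes (Vmn1r), 122 vomeronasal type 2 receptor genes (Vmn2r) and 15 trace amine-associated receptor genes (Taar). Their windows covered 8.63 Mb, against 1009 Mb for the 19194 other genes. Peaks of the 6 libraries that overlapped there by at least 1 bp merged into 236 regions, out of 397653 merged regions on these chromosomes.

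The libraries were ATAC-seq libraries, in which a transposase marks accessible DNA, made by the Omni-ATAC protocol from 50000 macrophages each. The macrophages were cultured from bone marrow of wild-type (WT) BALB/c mice and typed as F4/80+CD169+. The donors of the 3 young libraries were 3 weeks of age and those of the 3 old libraries more than 78 weeks, and no treatment is named for either group. Whether the libraries of a group come from different mice or cultures is not in the labels, so every p-value here is set against a spread between libraries that could be technical. The deposited lists held 223018 to 254410 peaks in young and 215947 to 245667 in old. Their read depth is unknown, and a locus without a peak is one where none was called. All 15 macrophage markers had a peak in every library, with Adgre1 (F4/80) covered over 864 to 1443 bp and Siglec1 (CD169) over 468 to 869 bp. Markers of other cells lay in peaks too: 302 peaks per Mb at 9 stromal genes, 191 at 5 B-cell genes, 199.95 at 3 T-cell genes, 290.0 at 5 neutrophil genes and 215 at 2 erythroid genes, against 259 at the macrophage markers. The defining genes Cd79b, Ly6g and Elane had a peak in 3, 1 and 1 of the 6 libraries. A peak at a gene does not show that the gene is transcribed.

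Odorants, pheromones and amines are sensed by large families of G protein-coupled receptors that lie in clusters along the chromosomes. Olfactory receptors and most trace amine-associated receptors act in the main olfactory epithelium, and vomeronasal receptors in the vomeronasal organ. Most sensory neurons express a single receptor allele, while the other receptor genes of that neuron are kept in closed, heterochromatic chromatin. Olfactory receptors signal through the G protein subunit encoded by Gnal, the cyclase encoded by Adcy3 and a cyclic nucleotide-gated channel. A few receptors are known outside the nose, among them the products of Olfr2, described in macrophages, and Olfr78, described in the carotid body.

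Promoter windows of the receptor genes, from 250 bases before to 50 bases after the annotated start, were compared with those of other genes to show what kind of sequence these loci carry. RefSeq entries of GRCm38.p6 matched 1269 of the 1471 receptor genes and gave 1274 windows of 300 bases. Only 14 of these windows (1.10%) met a peak in any library and 4 (0.314%) met a peak in all 6, against 72.1% and 62.6% of the windows of other genes. The 4 windows under a peak in every library, all of Olfr genes, are shown first, with the bases under a peak in all 6 libraries in capitals. The windows of Olfr550 (chr7:102578219-102578518, plus strand), Olfr222 (chr11:59571689-59571988, minus strand), Olfr49 (chr14:54282876-54283175, minus strand) and Olfr110 (chr17:37492218-37492517, plus strand) read 5′ to 3′ along each gene:
Olfr550: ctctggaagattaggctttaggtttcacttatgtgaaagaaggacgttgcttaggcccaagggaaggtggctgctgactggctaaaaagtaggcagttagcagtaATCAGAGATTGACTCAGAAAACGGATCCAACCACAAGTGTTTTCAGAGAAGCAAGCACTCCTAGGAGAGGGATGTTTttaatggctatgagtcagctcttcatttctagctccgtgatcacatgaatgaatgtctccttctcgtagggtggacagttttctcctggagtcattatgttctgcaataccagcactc
Olfr222: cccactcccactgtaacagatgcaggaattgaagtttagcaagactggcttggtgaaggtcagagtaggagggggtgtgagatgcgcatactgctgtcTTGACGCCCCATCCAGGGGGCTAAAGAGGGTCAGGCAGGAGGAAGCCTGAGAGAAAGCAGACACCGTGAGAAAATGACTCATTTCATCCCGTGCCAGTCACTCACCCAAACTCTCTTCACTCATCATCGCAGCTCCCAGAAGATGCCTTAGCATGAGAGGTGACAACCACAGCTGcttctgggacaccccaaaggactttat
Olfr49: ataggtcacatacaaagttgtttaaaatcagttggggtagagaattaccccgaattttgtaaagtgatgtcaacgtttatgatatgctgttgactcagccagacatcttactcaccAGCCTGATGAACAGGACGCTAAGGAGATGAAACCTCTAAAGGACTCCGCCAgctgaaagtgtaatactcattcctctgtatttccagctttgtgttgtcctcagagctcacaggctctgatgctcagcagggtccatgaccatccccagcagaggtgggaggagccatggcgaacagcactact
Olfr110: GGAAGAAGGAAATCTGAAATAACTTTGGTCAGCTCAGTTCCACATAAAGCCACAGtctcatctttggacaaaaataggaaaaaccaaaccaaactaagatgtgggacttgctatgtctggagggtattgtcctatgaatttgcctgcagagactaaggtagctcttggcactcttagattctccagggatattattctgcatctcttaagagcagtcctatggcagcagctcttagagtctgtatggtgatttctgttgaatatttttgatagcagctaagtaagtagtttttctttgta

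Peaks in all 6 libraries covered 77 of the 300 bases at Olfr550, 175 at Olfr222, 51 at Olfr49 and 55 at Olfr110. These windows had GC contents of 45.0%, 52.7%, 46.7% and 39.7% and held 4, 5, 5 and 0 CpG dinucleotides. The letters TGANTCA, the form of site that AP-1 factors recognise, occurred in Olfr550 (2 matches), Olfr222 (1 match) and Olfr49 (1 match) and not in Olfr110. The Olfr222 match and 1 of the 2 in Olfr550 lay within the capitals. The Olfr49 match and the other in Olfr550 lay outside them. This motif was found in 5 of the 14 windows with any peak (35.7%), in 15.7% of all receptor windows and in 7.06% of all promoters searched, counting both strands. By family it occurred in 13.4% of Olfr, 18.0% of Vmn1r and 31.9% of Vmn2r windows. The family richest in the motif had few peaks there, since 1 of 116 Vmn2r windows met one. Among Vmn1r windows none did, against 13 of 942 Olfr windows. A match is a description of the letters and not a binding site.

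A window of Vmn2r29 (chr7:7278240-7278539, minus strand) is shown because its base composition stood apart, and one of Vmn1r91 (chr7:20100908-20101207, plus strand) because it opens the largest cluster with no peak. Capitals mark bases under a peak in at least 3 libraries for Vmn2r29, and the letters GAGGAAGT for Vmn1r91:
Vmn2r29: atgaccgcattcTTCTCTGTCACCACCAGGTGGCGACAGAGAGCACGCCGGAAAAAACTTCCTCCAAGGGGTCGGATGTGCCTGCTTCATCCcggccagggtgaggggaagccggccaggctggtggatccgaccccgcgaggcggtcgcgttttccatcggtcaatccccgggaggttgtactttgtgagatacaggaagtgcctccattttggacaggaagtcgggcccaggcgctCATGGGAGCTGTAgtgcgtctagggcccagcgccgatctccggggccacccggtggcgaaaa
Vmn1r91: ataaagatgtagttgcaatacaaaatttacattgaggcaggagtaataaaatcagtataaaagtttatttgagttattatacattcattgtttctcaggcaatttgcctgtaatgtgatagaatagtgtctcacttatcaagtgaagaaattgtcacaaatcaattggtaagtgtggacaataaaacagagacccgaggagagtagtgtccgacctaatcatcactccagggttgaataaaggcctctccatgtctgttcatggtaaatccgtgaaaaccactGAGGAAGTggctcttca

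The Vmn2r29 window had 62.3% GC and 23 CpG, against a median of 35.7% GC and 1 CpG over the receptor windows and 57.7% GC and 15 CpG over windows of other genes. It met weak peaks in 4 libraries, 2 young and 2 old, with a −log10 q between 1.35 and 2.07. No CpG at all was present in 31.1% of receptor windows, against 2.59% of the windows of other genes. The 14 receptor windows with a peak had a median GC content of 45.8% and a median of 3 CpG. They were thus richer in GC than the receptor windows as a whole and poorer than the windows of other genes.

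Motifs of other factor classes differed between the families. GAGGAAGT, a form that the macrophage factor PU.1 and other ETS factors recognise, occurred in 36.1% of Vmn1r windows (74 of 205), in 0.743% of Olfr windows and in 3.18% of all promoters. None of the 205 Vmn1r windows, with or without these letters, met a peak, and 71 of the 74 matches lay in 1 cluster. TAATTA, a homeodomain-type motif, occurred in 18.7% of Olfr windows and 4.48% of all promoters. CCCNNGGG, the Ebf-type motif, occurred in 3.08% of Olfr windows, 19.8% of Vmn2r windows and 16.0% of all promoters. All motifs were searched on both strands and overlapping matches of different motifs were each counted.

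Receptor genes carried far fewer peaks per Mb than other genes in every library. The young libraries had 88, 71 and 89 peaks at receptor genes and the old libraries 106, 115 and 95. This is 10.2, 8.22 and 10.3 peaks per Mb in young and 12.3, 13.3 and 11.0 in old, or 10.9 ± 1.78 overall (SD, n = 6). Other protein-coding genes had 139 ± 8.17 peaks per Mb, with 129 in the lowest library. The log2 ratio of the 2 densities within a library was −3.69 ± 0.25, a 12.9-fold lower density that was seen in 6 of 6 libraries (exact sign-flip permutation test, two-sided p = 0.031, the smallest that 6 libraries can give). Peaks covered 0.187 ± 0.0288% of the receptor windows and 3.55 ± 0.473% of the windows of other genes.

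The receptor windows were poorer in peaks than the DNA around them. Within 50 kb of a receptor gene, outside the windows of any gene, density was 15.9 ± 0.92 peaks per Mb, from 14.8 to 16.9. The windows were lower by 1.47-fold in 6 of 6 libraries (log2 ratio −0.56 ± 0.20, exact sign-flip permutation p = 0.031). This did not hold for Olfr windows alone, with 15.8, 13.0 and 16.7 peaks per Mb in young and 19.3, 20.4 and 15.8 in old. The flank of all receptor genes had 15.4, 14.8 and 16.9 in young and 16.2, 16.9 and 15.1 in old. Within the windows of all families together, the added 1 kb was covered more than the gene spans in each library. Of its bases, 0.182% to 0.296% lay under peaks, against 0.121% to 0.190% of the spans. This pooled order mixes families of unlike coverage. Vmn2r windows made up 3.44 of the 8.63 Mb and were covered over 0.0349% to 0.0544%, against 0.220% to 0.346% for Olfr windows. The order within each family was not tested.

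**Figure D1:**
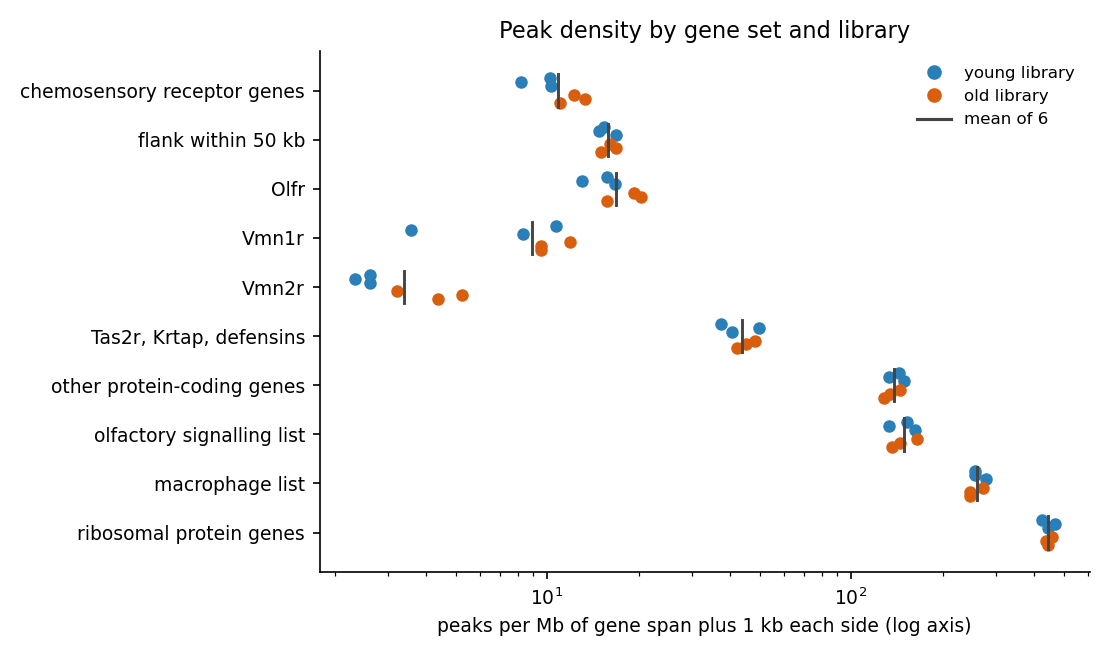
Peaks per Mb on a log axis for receptor genes, their flank, the 3 large receptor families and comparison gene sets; each point is 1 library (3 young, 3 old) and the bar is the mean of 6. Receptor genes together averaged 10.9 peaks per Mb, below their flank (15.9) and other protein-coding genes (139) in every library. Olfr genes alone averaged 16.8. The flank set counts DNA outside gene windows.

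As a combined set, other clustered, tissue-restricted families had more peaks. Bitter taste receptor genes (Tas2r), keratin-associated protein genes (Krtap) and defensin genes, 161 genes together, had 43.9 ± 4.77 peaks per Mb, 4.03 times the receptor mean. The 35 Tas2r genes, also G protein-coupled chemoreceptors, did not share this difference in every library. They had 1 peak (9.90 peaks per Mb) in each of 5 libraries and 3 peaks (29.7) in old replicate 3. They were lower than the receptor genes in 4 of 6 libraries (exact sign-flip permutation p = 0.88), and on average 2.86% of them had a peak in a library against 4.67% of receptor genes. Krtap genes had 48.0 ± 15.7 peaks per Mb and defensins 50.3 ± 5.09. Ribosomal protein genes, which are transcribed in every cell, had 446 ± 15.3. The receptor genes were lower than each of 7 comparison sets in 6 of 6 libraries (exact sign-flip permutation p = 0.031 for each, adjusted p = 0.031 over the 7). These sets were the flank, other genes, ribosomal protein genes, macrophage markers, the combined set above, and the formyl peptide receptors and olfactory signalling genes below. Tas2r genes by themselves were not among the 7.

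Formyl peptide receptors offer a contrast within one family, since Fpr1 and Fpr2 act on phagocytes whereas several Fpr-rs members are vomeronasal receptors. Fpr1 was covered over 299, 247 and 225 bp in young and 326, 165 and 239 bp in old. Fpr2 was covered over 987, 606 and 919 bp in young and 872, 368 and 537 bp in old. Fpr-rs3, Fpr-rs4, Fpr-rs6 and Fpr-rs7 had no peak in any library, and Fpr3 had 29 bp in 1 old library. The 2 phagocyte receptors therefore lay under peaks in all 6 libraries while 4 of the other 5 had none.

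The downstream genes of olfactory signalling and receptor choice were not sparse in peaks. This list of 34 genes had 149 ± 13.2 peaks per Mb, and on average 99.0% of its genes had a peak in a library. Of the 34, 32 had a peak in all 6 libraries, and Rtp1 and Trpc2, the chaperone for receptors and the vomeronasal channel, had a peak in 5 each. Omp, the olfactory marker protein gene, was covered over 384, 328 and 570 bp in young and 354, 342 and 321 bp in old. Many of these genes, such as Gnb1 and Gnai2, act in most cells, so the list is not particular to the nose. None of the 32 tested members passed the age test (limma, smallest adjusted p = 0.13, for Pde1c, a phosphodiesterase gene, with a log2 change of 0.73).

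The families themselves differed in density. Olfr genes had 16.8 ± 2.67 peaks per Mb (13.0 to 20.4), Vmn1r genes 8.94 ± 2.89 (3.58 to 11.9) and Vmn2r genes 3.39 ± 1.16 (2.33 to 5.24). Olfr exceeded Vmn1r and Vmn1r exceeded Vmn2r in 6 of 6 libraries (exact sign-flip permutation, adjusted p = 0.031 over 6 comparisons of density and covered percent). Vmn1r4, whose window meets Nt5c3, held 60.9% of the covered bp summed over Vmn1r genes. Without the receptor genes near another gene, an alternative chosen after seeing the data, Vmn1r had 6.02 ± 2.42 peaks per Mb, still below Olfr (15.7 ± 2.45) and above Vmn2r (3.29 ± 1.141) in 6 of 6 libraries (p = 0.031 each, exact sign-flip permutation). Vmn2r genes have long spans with several exons, and 7.10 ± 1.85% of them had a peak in a library, against 4.71 ± 0.713% of Olfr and 2.54 ± 0.844% of Vmn1r genes. The order by gene was therefore not the order by Mb. The 15 Taar genes cover only 0.0478 Mb, and their 48.9 ± 28.6 peaks per Mb came from 1 to 4 peaks per library.

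Most receptor genes had no peak in any library. This held for 1323 of the 1471 genes (89.9%), against 9.49% of other genes. In single libraries 68, 54 and 61 receptor genes had a peak in young and 76, 82 and 71 in old. Of the 148 genes with any peak, 63 had one in a single library and 32 in all 6, which is 2.18% of the receptor genes against 83.9% of other genes. Another protein-coding gene lay near 15 receptor genes (their windows met), and 6 of these 15 had a peak. Without those 15 the log2 ratio to other genes was −3.80.

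Where a receptor gene did have a peak, it was weaker within its list than peaks elsewhere, by the fold over local background and the −log10 q that the authors' peak caller gave. These values describe peaks within a list and are not compared between libraries. The median folds at receptor genes were 3.39, 3.36 and 3.43 in the young lists and 3.45, 3.12 and 3.19 in the old lists, against 3.49, 3.38 and 3.50 and 3.51, 3.32 and 3.36 at other genes. For −log10 q the young medians were 2.65, 2.60 and 2.89 and the old medians 2.66, 1.80 and 2.24, against 3.42, 3.15 and 3.57 and 3.54, 2.61 and 3.05. Thus both medians were lower at receptor genes in each of the 6 lists, with a small gap in fold. The median receptor peak sat between the 33.2 and the 41.9 percentile of its own list by −log10 q.

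The gap to other genes widened among stronger peaks. In the first young library other genes had 14.1 times the receptor density over all peaks, 22.6 times at a −log10 q of at least 5 and 34.7 times at 10 or more. The ratio at 10 or more was 44.6 and 27.1 in the other young libraries and 29.0, 37.6 and 87.2 in the old ones, and it rests on 10 or fewer receptor peaks per library. A −log10 q of at least 5 was reached by 22.7%, 18.3% and 28.1% of receptor peaks in young and 24.5%, 7.83% and 15.8% in old. For peaks at other genes these shares were 36.4%, 32.1% and 38.2% in young and 37.97%, 27.3% and 31.7% in old.

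**Figure D2:**
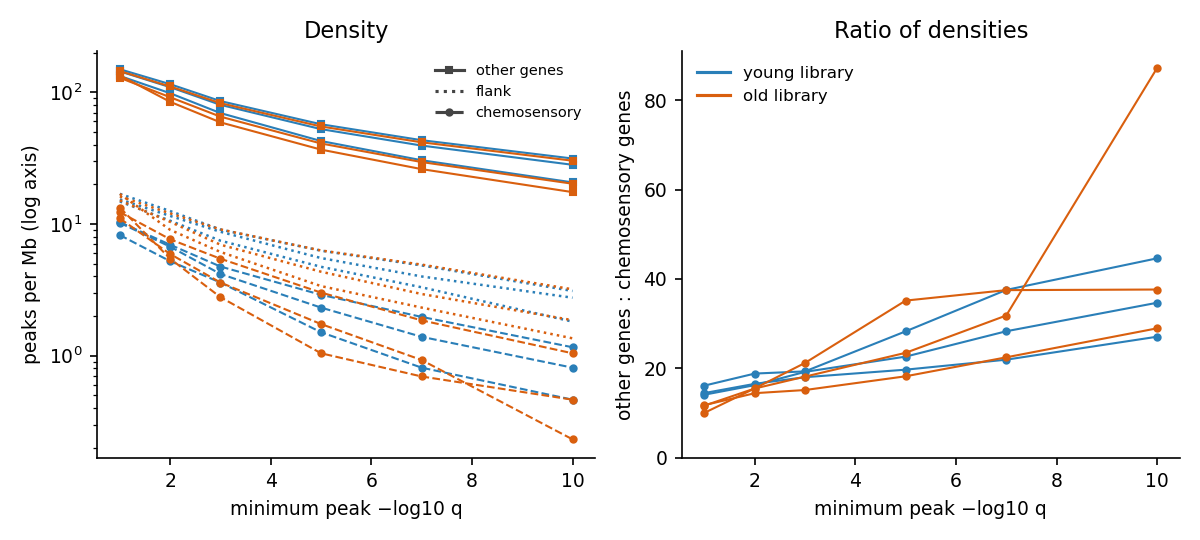
Left, peaks per Mb (log axis) against the minimum −log10 q for other genes (solid), the flank (dotted) and chemosensory genes (dashed) in 3 young and 3 old libraries; right, the ratio of other-gene to chemosensory density. The ratio was 10.1 to 16.2 over all peaks and 27.1 to 87.2 at a −log10 q of at least 10, where a library had 2 to 10 receptor peaks.

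Receptor regions were shared by fewer libraries than regions at other genes. Of the 236 merged regions, 134 (56.8%) were found in 1 library and 38 (16.1%, Wilson 95% interval 12.0% to 21.3%) in all 6. At other genes 39.9% of regions were found in 1 library and 31.3% in all 6. The second old library alone gave 42 of the 134 regions found once, against 12 to 26 in each of the other libraries, and 39.0% of its whole list had a −log10 q under 2, against 23.6% to 29.7% in the others. Regions found in 1 library had a median width of 70.5 bp and no −log10 q above 4.95, whereas those found in all 6 had a median width of 386 bp. Merging widens regions that more libraries share.

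**Figure D3:**
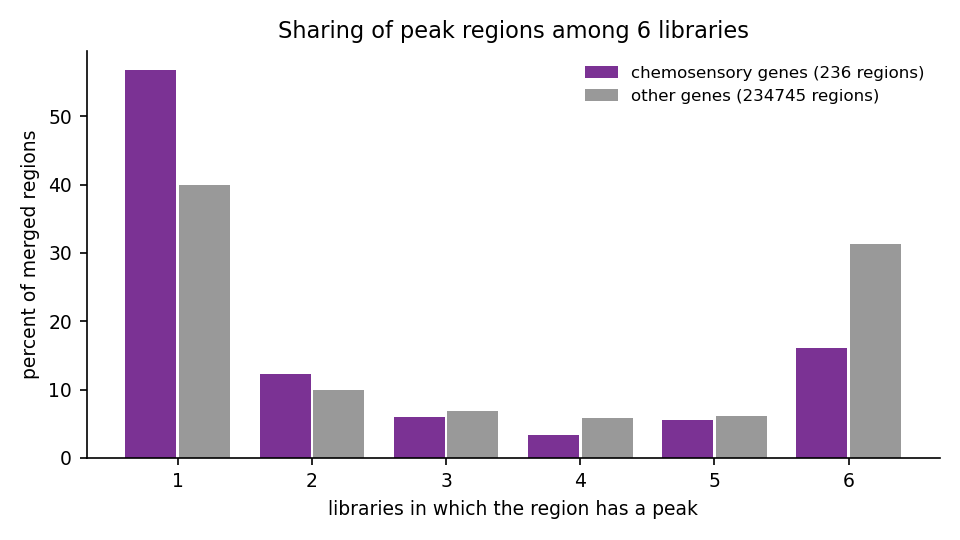
Percent of merged regions by the number of libraries with a peak, for 236 regions at chemosensory genes and 234745 at other genes. At chemosensory genes 56.8% of regions were found in 1 library and 16.1% in all 6, against 39.9% and 31.3% at other genes.

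Overlap between libraries was also measured within and across ages. A young library's receptor peaks were overlapped by another young library in 62.1% of cases on average and by an old library in 63.4%. For old libraries the averages were 57.0% with another old library and 51.3% with a young one. Peaks at other genes gave 78.4% and 70.5% for young, and 73.0% and 76.3% for old. These shares depend on the length of the list that is compared, so they are given without a test.

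The 38 regions found in all 6 libraries were spread over the families as 31 Olfr, 3 Vmn1r, 3 Vmn2r and 1 Taar regions. Of these, 22 met a gene span and the rest lay within 1 kb of one. Only 2 lay within 1 kb of another protein-coding gene, and the median distance to one was 28.1 kb. Ranked by the percentile of their −log10 q in the weakest library, 17 stayed above 50 and 1 above 90. That region lay at Vmn1r4 (chr6:56923357-56924375), where it also overlapped Nt5c3, a nucleotidase gene, and had a −log10 q of 50.5, 39.9 and 52.9 in young and 50.2, 30.4 and 37.4 in old.

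The next 5 regions lay at Olfr genes. The region 562 bp from Olfr111 (chr17:37538214-37538879) had a −log10 q of 13.2, 13.6 and 18.6 in young and 20.4, 10.4 and 10.4 in old. A region 779 bp from the opposite end of Olfr111 (chr17:37524413-37524974) had 10.3, 8.06 and 11.4 in young and 13.0, 11.8 and 8.04 in old. Olfr111 lies in the extended major histocompatibility complex, and these regions lay 54.7 and 40.9 kb from the class I gene H2-M2. The region 606 bp from Olfr433 (chr1:174040556-174041327) had 15.5, 17.3 and 17.2 in young and 15.03, 14.3 and 9.90 in old, and lay 8.80 kb from Ifi205, an interferon-inducible gene.

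The fifth of the 6 met the span of Olfr1509 and ran past its end (chr14:52450975-52451563), within the T-cell receptor alpha locus Tcra as RefSeq draws it, with a −log10 q of 18.7, 12.0 and 17.9 in young and 11.1, 6.62 and 9.44 in old. The last lay 646 bp from Olfr1373 (chr11:52143759-52143947), with 9.74, 6.58 and 10.8 in young and 9.62, 6.83 and 6.36 in old, 21.0 kb from the phosphatase gene Ppp2ca. All 6 regions stood above the 76 percentile of each list. The nearest other gene of the 38 shared regions lay at up to 508 kb. Whether these regions belong to the receptor genes or to their neighbours was not tested.

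Peak density differed widely between receptor clusters. Chaining genes at gaps of up to 500 kb gave 77 clusters, of which 33 had at least 10 genes and 26 had no peak in any library. The 3 densest large clusters were Olfr clusters. That on chromosome 1 (chr1:174041933-174449602, Olfr433 to Olfr220, 13 genes), beside the interferon-inducible Ifi genes, had 94.8 ± 31.3 peaks per Mb (77.6 to 155). That on chromosome 11 (chr11:49112777-49564858, Olfr1396 to Olfr1380, 19 genes) had 88.2 ± 28.1 (48.1 to 132), and that on chromosome 17 (chr17:37085191-38336097, Olfr90 to Olfr136, 46 genes), in the major histocompatibility region, 52.4 ± 9.03 (38.1 to 61.9). These densities rest on few peaks, in order 3 to 6, 4 to 11 and 8 to 13 per library. Only 3 of the 13 genes, 7 of the 19 and 11 of the 46 had a peak in any library. The chromosome 1 windows cover only 0.0387 Mb. In every library all 3 stood above the 8.22 to 13.3 peaks per Mb of the receptor genes as a whole, and their means lay below that of other genes.

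At the other end, 4 large clusters had no peak in any of the 6 libraries. They were the Vmn1r cluster on chromosome 7 (chr7:20101158-24055691, Vmn1r91 to Vmn1r183, 86 genes), Olfr clusters on chromosome 7 (chr7:107814586-108894405, Olfr467 to Olfr519, 42 genes) and chromosome 2 (chr2:111230853-112157007, Olfr1275 to Olfr1318, 37 genes), and a mixed vomeronasal cluster (chr7:9754636-10749538, Vmn2r46 to Vmn1r71, 13 genes). The largest cluster (chr2:85330967-90401674, 222 Olfr genes) had 3.32 ± 1.70 peaks per Mb. The chromosome 7 cluster that holds the class I receptors, the fish-like type (chr7:102476773-105369317, 126 genes), had 15.4 ± 5.63. Density was lower in clusters of at least 10 genes, at 8.74 ± 1.30 peaks per Mb, than in smaller clusters and single genes, at 19.6 ± 3.99, in 6 of 6 libraries (exact sign-flip permutation p = 0.031, a comparison chosen after the values were seen).

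**Figure D4:**
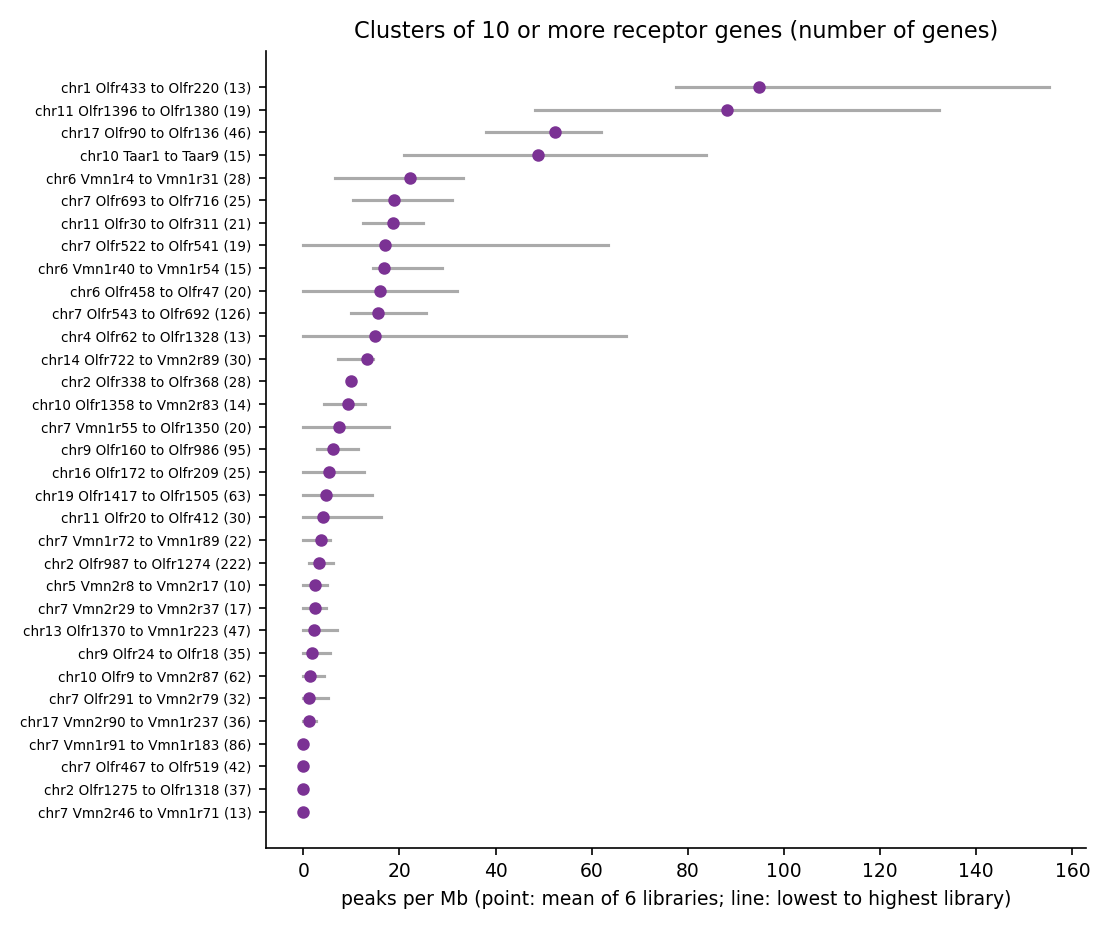
Peaks per Mb in the 33 clusters of 10 or more receptor genes, named by chromosome and first and last gene; points are means of 6 libraries and lines run from the lowest to the highest library. The densest 3 had 94.8, 88.2 and 52.4 peaks per Mb and 4 clusters had none.

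Sequence repetition differed between the same clusters. A window was called repeated where it held a run of 50 bases that also occurred in the promoter window of another gene. This held for 24.7% of receptor windows and 13.5% of windows of other genes, and by family for 13.6% of Olfr, 55.1% of Vmn1r, 62.9% of Vmn2r and 9.09% of Taar windows. In the peak-free Vmn1r cluster on chromosome 7, 76 of 83 genes with a window had a repeated one (91.6%), and 71 of 83 windows held GAGGAAGT. In the peak-free Olfr cluster on chromosome 2 only 2 of 30 genes had a repeated window (6.67%). So peak-free clusters occurred with and without repeated promoters.

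Genes with a repeated window had 5.35 ± 1.47 peaks per Mb (n = 315), and those without 14.6 ± 2.30 (n = 954), higher in 6 of 6 libraries (exact sign-flip permutation p = 0.031). Genes without a repeated window were still below other genes by 7.57-fold to 11.7-fold in the 6 libraries (p = 0.031, exact sign-flip permutation). Within families the gap was 14.1 ± 5.31 against 4.48 ± 2.197 for Vmn1r, higher without repeats in 6 of 6 libraries (exact permutation p = 0.031). Without Vmn1r4, the Vmn1r gene near another gene, it was 7.57 ± 4.18 against 4.48 ± 2.197, higher in 6 of 6 libraries (exact permutation p = 0.031). It was 18.9 ± 3.01 against 15.3 ± 4.80 for Olfr (higher in 5 of 6, exact permutation p = 0.094) and 4.02 ± 1.24 against 3.21 ± 1.37 for Vmn2r (4 of 6, exact permutation p = 0.22). How reads from near-identical copies were placed is not given in the sources used here, and its part in these densities was not tested.

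Covered length per gene showed which receptor genes lay under peaks. Loci differ in length, so these base pairs are not compared between genes. Olfr2 had short peaks of 96 bp in the first young library and 97 and 100 bp in old replicates 1 and 3, and none in the other libraries. Olfr78 had none in any library. Olfr111 was covered over 766, 503 and 898 bp in young and 1233, 884 and 666 bp in old, mostly beside the gene, where its span held 13 to 244 bp. Olfr70 (chr4:43695000-43700807) was covered over 616, 666 and 751 bp in young and 933, 667 and 785 bp in old. Both genes had overlapping young and old values before scaling. Scaled to the library's sum over loci, Olfr70 had 566, 714 and 655 bp in young and 837, 784 and 903 bp in old. These scaled values did not overlap (limma adjusted p = 0.42).

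Olfr433 (chr1:174041933-174042936) was covered over 659, 601 and 767 bp in young and 727, 574 and 735 bp in old, nearly all outside the gene. Olfr222 (chr11:59570782-59571738) was covered over 827, 423 and 625 bp in young and 783, 246 and 724 bp in old, and Olfr225 (chr11:59612966-59614225) over 462, 451 and 587 bp in young and 662, 446 and 444 bp in old. Olfr687 (chr7:105227717-105276461) was covered over 585, 477 and 540 bp in young and 573, 551 and 554 bp in old, all inside its span. Olfr1509 was covered over 543, 440 and 557 bp in young and 488, 269 and 203 bp in old. In each of these the ranges of the 2 ages overlapped before scaling. After scaling, Olfr1509 had 499, 472 and 486 bp in young and 438, 316 and 234 bp in old, without overlap (limma adjusted p = 0.49).

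Among genes with a neighbouring gene, Vmn1r4 was covered over 1081, 969 and 1239 bp in young and 1330, 1248 and 1051 bp in old beside Nt5c3. Olfr94 was covered over 951, 712 and 738 bp in young and 598, 607 and 708 bp in old, beside Ubd, a ubiquitin-like modifier gene induced in immune cells. Olfr94 was thus higher in every young library before scaling. After scaling its values overlapped, with 874, 764 and 644 bp in young and 537, 714 and 815 bp in old (limma adjusted p = 0.84). Scaled values of Vmn1r4 were 993, 1039 and 1081 bp in young and 1194, 1468 and 1209 bp in old, without overlap (limma adjusted p = 0.39). Olfr1393 was covered over 760, 536 and 630 bp in young and 886, 517 and 492 bp in old, beside the glycosyltransferase gene Mgat1. Vmn2r8, the fourth by mean, had 0, 0 and 151 bp in young and 117, 124 and 0 bp in old, beside Tmed11.

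In the vomeronasal families, Vmn1r33 followed Vmn1r4 with 312, 71 and 256 bp in young and 364, 296 and 208 bp in old, and Vmn1r45 had 220, 89 and 185 bp in young and 96, 68 and 235 bp in old. Vmn2r26 had 410, 538 and 605 bp in young and 609, 303 and 467 bp in old. Vmn2r27 varied least, with 246, 238 and 246 bp in young and 203, 234 and 241 bp in old. Vmn2r19 had 415, 114 and 193 bp in young and 170, 146 and 243 bp in old. Peaks at these 5 genes lay wholly inside the spans.

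Taar genes encode amine sensors. Taar8b had 203, 175 and 193 bp in young and 241, 151 and 67 bp in old, outside its span. Taar7f had a peak in 2 libraries and Taar4 in 3, of at most 76 bp of covered length. The remaining receptor genes with a peak in all 6 libraries were Vmn2r1 and Olfr genes.

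**Figure D5:**
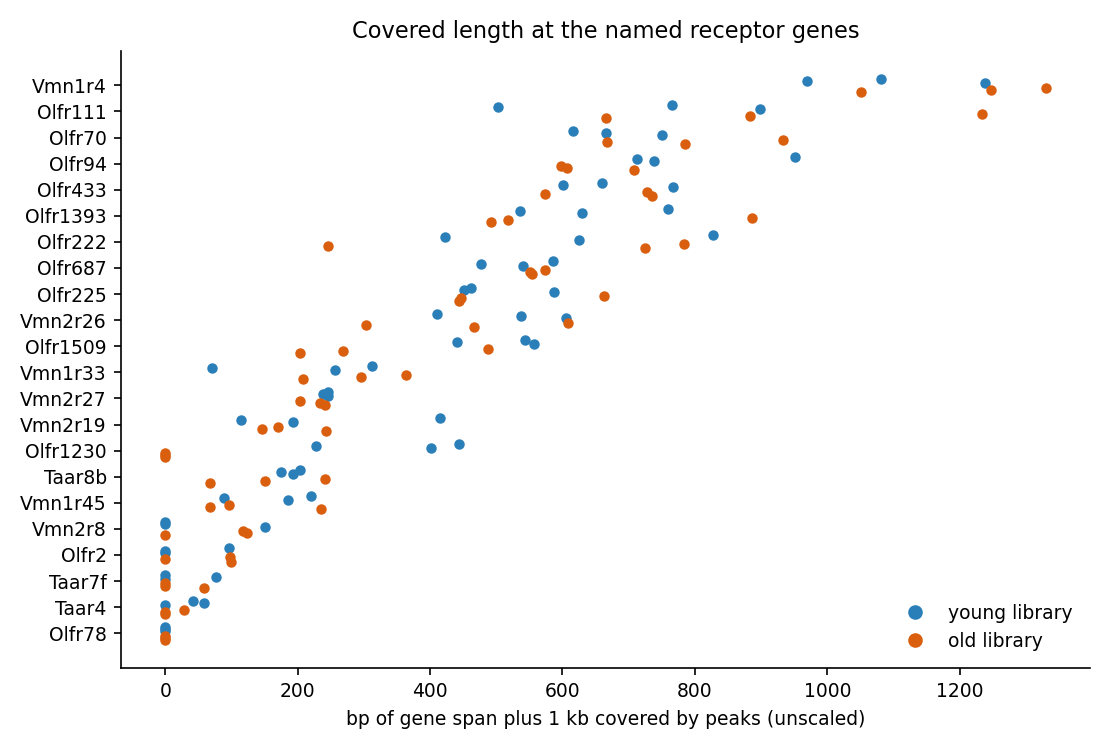
Base pairs under peaks within the span plus 1 kb, unscaled, at the named receptor genes and Olfr1230; each point is 1 library, young or old. Young and old values overlapped at most genes, while Olfr1230 had 227 to 444 bp in young and 0 in old libraries, and Olfr78 had 0 in all.

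Old libraries had more receptor peaks than young ones at the authors' threshold. The means were 105 ± 10.02 in old and 82.7 ± 10.1 in young (SD, n = 3 each), and every old library was above every young one (exact permutation p = 0.10, the smallest that 3 against 3 can give). Relative to other genes of the same library the log2 ratio was −3.48 ± 0.13 in old and −3.90 ± 0.10 in young, a difference of 0.42 (exact permutation p = 0.10). Receptor genes with a peak made up 5.19 ± 0.374% in old and 4.15 ± 0.476% in young (exact permutation p = 0.10). An exact permutation of 3 against 3 libraries cannot pass a threshold of 0.05.

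This difference depended on the threshold for peaks. With peaks of a −log10 q of at least 2 the log2 ratio differed by 0.18 (exact permutation p = 0.10). With peaks of a −log10 q of at least 5, the log2 ratio was lower in old by 0.085 on average (difference −0.085, exact permutation p = 0.80), and the share of receptor genes with a peak changed by −0.204 percentage points. At a −log10 q of at least 2 the mean share of genes was equal in both ages (difference 0). With the 50000 strongest peaks of each library the log2 ratio differed by 0.16, with overlapping ages (exact permutation p = 0.60). The percent of receptor windows covered was 0.194 ± 0.0282 in old and 0.180 ± 0.0336 in young, with overlapping values (exact permutation p = 0.70). The share of each whole list with a −log10 q under 2 was 24.7%, 26.6% and 23.6% for the young libraries and 24.3%, 39.0% and 29.7% for the old ones. Its part in the difference was not tested.

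Neither the flank nor other genes showed the same separation. Density in the flank was 16.0 ± 0.912 peaks per Mb in old and 15.7 ± 1.10 in young (exact permutation p = 0.80). At other genes it was 136 ± 8.16 in old and 142 ± 8.40 in young (exact permutation p = 0.50). The log2 ratio of receptor windows to their flank was −0.40 ± 0.056 in old and −0.72 ± 0.13 in young, apart in all libraries (exact permutation p = 0.10).

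Few receptor genes could be tested one by one. A locus needed a mean of 150 bp under peaks, which 33 receptor genes reached and 1438 did not. Covered length was scaled to the library's sum over loci and tested with limma on log2(bp + 200) over all 16175 loci. Olfr1230 was the 1 receptor gene that passed an adjusted p of 0.05, narrower in old, and 0 were wider. Over all tested loci 0.569% were narrower and 0.402% wider. An unadjusted p under 0.05 was reached by 5 of the 33 receptor genes (15.2%) and by 12.4% of all loci. Among these receptor genes, Olfr1230, Olfr729 and Olfr1386 passed the filter through 1 age alone. The median log2 change was 0.13 over the 33 and 0.01 over all loci.

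Olfr1230 (chr2:89296351-89297268) lies in the largest Olfr cluster, and its ligand is not described here. It was covered over 444, 227 and 401 bp in young and had no peak in any old library, with a log2 change of −1.40 (SE 0.31, limma adjusted p = 0.043). It passed the filter only through the young libraries, so it had to differ, and it is no support for a change of the family. The call was lost (limma adjusted p = 0.060 to 0.35) with a −log10 q of at least 2, 10 kb windows, a pseudocount of 50 bp, no filter, no scaling, quantile normalization and a replicate block. Without young replicate 2, old replicate 2 or old replicate 3 the adjusted p was 0.080, 0.066 and 0.078, without old replicate 1 it was 0.045, and without young replicate 1 or 3 the gene was under the filter.

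Of the 33 tested genes, 5 (15.2%) had all old values above all young ones, against 8.48% of all loci. The reverse held for 4 (12.1%), against 8.04% of all loci. Olfr1414 is among the 5, and Olfr1230 and Olfr729 are among the 4. These passed the filter through 1 age alone, so both counts were partly fixed by the filter. The genes nearest to a call in the wider direction were Olfr111 (log2 0.42, SE 0.16, limma adjusted p = 0.27), Olfr1386 (0.87, SE 0.34, adjusted p = 0.29), Vmn1r4 (0.26, SE 0.12, adjusted p = 0.39) and Olfr1414 (0.68, SE 0.32, adjusted p = 0.41). In the narrower direction they were Olfr729 (−0.88, SE 0.32, limma adjusted p = 0.26), Olfr1509 (−0.39, SE 0.21, adjusted p = 0.49) and Olfr1258 (−0.44, SE 0.26, adjusted p = 0.53). Olfr729 passed the filter only through young, with scaled means of 255 bp in young and 48.5 bp in old. Olfr1386 (138 bp in young, 391 bp in old) and Olfr1414 (105 and 278 bp) passed it only through old. Olfr729, Olfr1386 and Olfr1414 are therefore no support for a change of the family. None of these 7 passed the test in any alternative. With windows of 10 kb, which reach into neighbouring DNA, 3 of 143 tested receptor loci passed, 1 wider and 2 narrower, where 0.397% of all loci were wider and 0.581% narrower. They were Vmn1r58 (log2 1.91, limma adjusted p = 0.0031), Olfr1226 (−1.86, adjusted p = 0.0065) and Olfr1231 (−1.40, adjusted p = 0.04996). Whether these loci passed the filter through 1 age alone, or share peaks with Olfr1230, was not tested. They are therefore no support for a change of the family.

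Regions confined to 1 age were rare. Of the 236 receptor regions, 2 (0.847%) were found in all 3 young and no old library, against 1.42% of all regions, and none in all 3 old and no young library, against 0.515%. One of the 2 lay at Olfr1230 (chr2:89296329-89296881), with a −log10 q of 3.91, 6.25 and 5.30. The other lay 502 bp from Olfr222 (chr11:59572240-59572405), with 1.27, 1.76 and 3.06, next to a region of Olfr222 found in all 6 libraries. With a −log10 q of at least 2, 1 receptor region (0.926%) was found in young alone and 2 (1.85%) in old alone, against 2.00% and 0.556% of all regions.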

How the data were processed

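6 Omni-ATAC libraries (3 young, 3 old; paired-end 125 bp on 4 lanes, per the labels' protocols) were used. The authors' peak caller is listed in the submitters' processing notes as MACS2 2.1.0.20140616 and the build as mm10, next to Bowtie2 2.2.6, Trim Galore 0.4.4, SAMtools, cutadapt 1.14 and Picard, with no role stated. A separate broad peak list was deposited for each library. A deposited peak has a score, a fold enrichment (a ratio over local background), and the −log10 p and −log10 q that the authors' caller gave; the score was not used. For duplicate removal, transposase shift and masking the status is: not given in the sources used here.

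Gene spans and promoter sequences came from RefSeq (GRCm38.p6, whose primary chromosomes are those of mm10). Peaks overlapping gene spans plus 1 kb by 1 bp were counted per Mb of merged windows; densities were compared within libraries by exact sign-flip tests and between ages by exact permutation tests. Covered base pairs per locus, scaled to the mean library sum, went into limma 3.58.1 under R 4.3.3 (trend, robust, Benjamini-Hochberg; tested on simulated data). Other steps used Python 3.11.15, numpy 2.4.6, pandas 2.3.3, scipy 1.17.1 and matplotlib 3.10.9.

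The members, lists and rules were chosen with earlier results of these data known. Named were Olfr2 and Olfr78; the 8 highest by mean covered bp with no other gene near and the 4 highest with one; the 3 highest of Vmn1r, Vmn2r and Taar; 4 tested loci per direction by p; 6 shared regions and up to 3 per age by percentile; and the 3 densest and 3 sparsest clusters (4 tied at 0). The comparisons of cluster size and repeated windows were added after values were seen. Alternatives tried were thresholds of 2 and 5 on −log10 q, 50000 peaks per library, other windows and overlaps, pseudocounts, filter, scaling, leaving out each library, and a replicate block. Leaving receptor genes near another gene out of the comparisons of families and repeated windows was added after the values were seen.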

Additional observations from a re-analysis of the deposited data

How the results depend on the processing

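Receptor density stayed below other genes under all 13 alternatives run; leaving out 1 library gave log2 ratios from −3.76 to −3.62 (p = 0.062 each in exact sign-flip permutation tests, the smallest 5 libraries allow). The difference between ages kept its sign under the alternatives run except with a −log10 q of at least 5, where it was −0.085 for the log2 ratio, −0.00049 for the percent of all peaks and −0.204 for the percent of genes, and a −log10 q of at least 2, where the percent of genes differed by 0. The ages no longer stood apart with the 50000 strongest peaks, where the log2 ratio differed by 0.16 (exact permutation p = 0.60), the percent of peaks by 0.0020 (p = 0.40, exact permutation) and the percent of genes by 0.045 (p = 1, exact permutation). With 10 kb windows the log2 ratio differed by 0.22. Leaving out 1 library gave 0.34 to 0.46 for the log2 ratio.

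The count of called receptor loci, 1, became 0 with a −log10 q of at least 2 or 5, the 50000 strongest peaks, a pseudocount of 50 bp, no filter, no scaling or quantile normalization, and 3 with 10 kb windows; leaving out 1 library gave 0 to 1. All-gene calls, 157, became 13 with a −log10 q of at least 5, 246 with the 50000 strongest peaks, 2 without the filter, 2 without scaling and 30 to 319 with 1 library left out. Without scaling the median log2 change of all loci was −0.13. Replicate numbers did not pair the libraries (same-number correlations 0.13, 0.12 and −0.12); a replicate block gave 0 called receptor loci (smallest adjusted p = 0.060, limma), 210 calls over all genes, and an age difference of 0.42 in the log2 ratio, 0.0117 in the percent of peaks and 1.04 in the percent of genes, each with p = 0.25, the smallest that 3 pairs allow in an exact sign-flip permutation test.

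Receptor regions found in all 6 libraries made up 25.9% with a −log10 q of at least 2, 21.2% at 5 or more (7 of 33 regions) and 33.3% among the 50000 strongest peaks (5 of 15), against 39.6%, 44.7% and 54.5% at other genes. Regions of young libraries alone numbered 1 with a −log10 q of at least 2, 0 at 5 or more and 0 among the 50000 strongest; regions of old libraries alone numbered 2 with a −log10 q of at least 2 (all regions at that threshold: 2.00% young alone, 0.556% old alone). Read depth is unknown, and 2 to 10 receptor peaks per library reached a −log10 q of 10, which limits statements on strong peaks.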

Other observations

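Genes that RefSeq lists as receptor pseudogenes and X-linked receptor genes were not in the gene set described above. It did keep 3 genes whose symbols end like those of pseudogenes (Olfr367-ps, Olfr911-ps1 and Olfr1532-ps1), since RefSeq lists them as protein-coding; none of the 3 had a peak. The 304 autosomal chemosensory pseudogenes had 14.7 ± 2.27 peaks per Mb, higher than the protein-coding receptor genes in 6 of 6 libraries by 3.86 on average (exact sign-flip permutation p = 0.031). This density was below the 16.8 of Olfr genes, and by gene the order was the reverse: 2.63% to 3.95% of pseudogenes had a peak in a library, against 3.67% to 5.57% of receptor genes, lower in each of the 6 libraries. Of these pseudogenes, 19 had a peak in any library and 6 in all 6. Olfr647-ps1 was covered over 702, 618 and 618 bp in young and 763, 610 and 335 bp in old. Olfr431-ps1, on chromosome 1 in the densest Olfr cluster, was covered over 500, 476 and 557 bp in young and 583, 464 and 495 bp in old. Olfr756-ps1, on chromosome 17, was covered over 484, 543 and 749 bp in young and 457, 285 and 232 bp in old, lower in every old library. Olfr754-ps1, Olfr650-ps1 and Olfr1542-ps1 had means of 289, 153 and 116 bp. The 7 receptor genes on chromosome X had no peak in any library, in lists with 3192 to 4966 peaks on that chromosome.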
